A study of Mus musculus with 12 samples.

Results

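Hindbrain circuits that report gut, fat, and sickness signals read those signals through a small set of receptors, and the expression of 10 genes of this system was followed in the mouse brainstem after neonatal morphine exposure. The genes were taken by name from the count table, which held 10 of 10 among its 55418 genes. They were the receptor genes *Gfral*, *Calcr*, *Glp1r*, *Mc4r*, *Lepr*, *Npy1r*, *Cckar*, *Prokr1*, and *Prokr2*, and *Gcg*, which encodes the peptide precursor whose product activates the receptor made from *Glp1r*.

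RNA came from the brainstem (medulla and pons) of 12 outbred CFW (Swiss Webster) mice at P15, with 1 poly-A library per mouse. Morphine mice (3 females, 3 males) had received 15 mg/kg morphine s.c. 2 times per day from P1 through P14, saline mice (3 females, 3 males) had received saline on the same days, and tissue was collected 16 h after the last injection, in spontaneous withdrawal. Mice of both treatments came from mixed litters, the labels do not name the dams, and litter was therefore not part of any fit. The study asked how the brainstem transcriptome of morphine-exposed mice differed from that of saline mice, in both sexes together and in each sex.

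The satiety signals enter the hindbrain at the area postrema and the nucleus of the solitary tract, which lie in the dorsal medulla and receive vagal input from the gut. There GFRAL binds the stress hormone GDF15, CALCR binds amylin and calcitonin, CCKAR binds cholecystokinin, and GLP1R binds the glucagon-like peptide that a group of *Gcg*-expressing neurons of the solitary nucleus makes. MC4R and LEPR carry the melanocortin and leptin signals that lower food intake, NPY1R carries the feeding-promoting signal of neuropeptide Y, and PROKR1 and PROKR2 are the receptors of the prokineticins, which also lower food intake. In whole brainstem tissue, fewer cells that express a gene and less RNA per cell cannot be told apart.

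The libraries held 27850565 to 48097947 counts on genes (median 33214511). All levels below are CPM, the count of a gene scaled to the library total, after TMM normalization, which corrects for differences in library composition, and levels of different genes are compared only as CPM per kb of exon. The tissue label was checked against marker genes. *Slc6a5*, the transporter of glycinergic neurons, was at 468–636 CPM, and of 11 Hox genes of the caudal spinal cord 0 passed the filter on low counts. A protocol text in the labels names spinal cords, while the tissue label and the study name the brainstem. With no spinal cord library for comparison, the level of *Slc6a5* does not separate these tissues. The Hox genes bear on the caudal cord only. The library labelled morphine male 6 held *Xist* at 380.4 CPM, against 550.4–978.7 CPM in females and 0.399–2.65 CPM in the other males. It held *Ddx3y* at 12.8 CPM. Values without this library are given for *Prokr1* over both sexes and for *Gcg* in males. Elsewhere, leaving it out enters only the counts and ranges over fits that left out each mouse in turn. Whether the calls of other genes in males or between the sexes hold without this library is not shown.

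The 10 genes spanned a wide range, and their order was nearly the same in every mouse. *Npy1r* was first in 12 of 12 mice, at 4.19 ± 0.586 CPM per kb (SD, n = 12). *Glp1r* (2.17 ± 0.200 CPM per kb), *Calcr* (1.88 ± 0.279), *Mc4r* (1.46 ± 0.202), and *Lepr* (1.38 ± 0.403) followed. Within this group each neighbour's range overlapped the next, with *Glp1r* above *Calcr* in 9 of 12 mice, *Calcr* above *Mc4r* in 10, and *Mc4r* above *Lepr* in 8. *Gcg* (0.592 ± 0.187 CPM per kb) and *Cckar* (0.516 ± 0.0962) formed the next pair and were not separated from each other, since *Gcg* was the higher in 8 of 12 mice. *Prokr2* was eighth in 12 of 12 mice (0.259 ± 0.0614 CPM per kb). *Prokr1* (0.131 ± 0.0332) and *Gfral* (0.110 ± 0.0755) were lowest and overlapped.

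**Figure D1:**
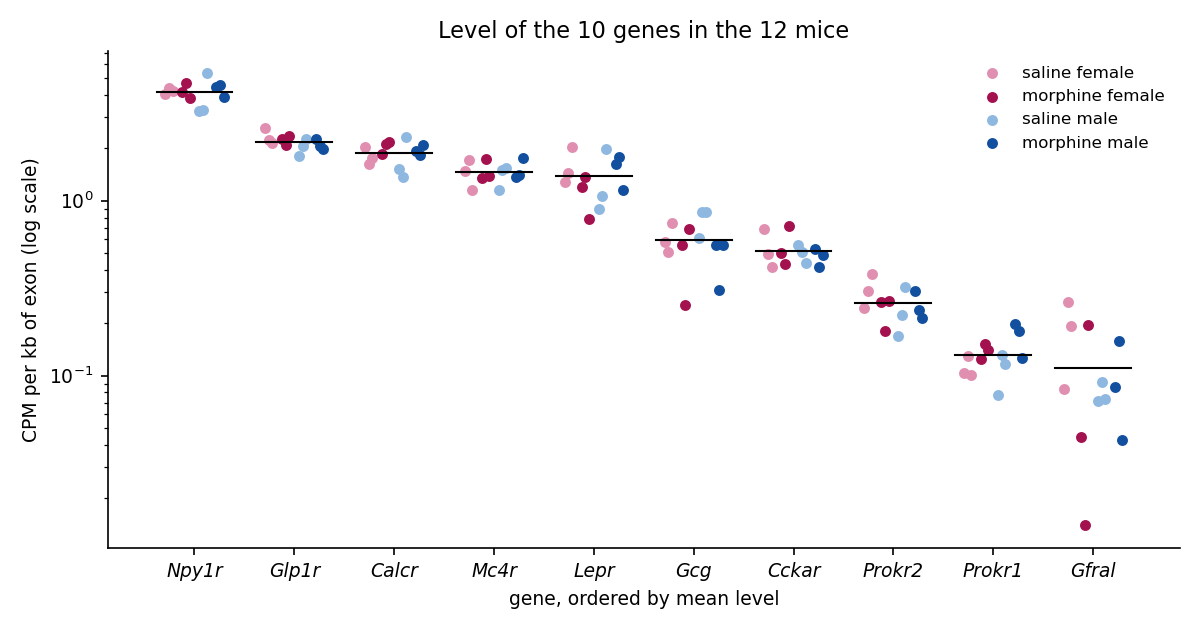
Level of each gene in each of the 12 mice, in CPM per kb of exon on a log axis, with genes ordered by their mean (black line). Points are mice, colored by sex and treatment. *Npy1r* lies above the other genes in all mice, and the points of *Gfral* spread most widely, from 0.0139 to 0.265 CPM per kb.

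The depth behind these levels differed strongly between genes. *Npy1r* had 361–601 counts per library and *Glp1r* 353–558, whereas *Prokr1* had 11–28 and *Gfral* 1–18. For *Prokr1* the coefficient of variation over the 12 mice was 25.3%, where counting error alone would give 23.1%. For *Gfral* it was 68.7% against 36.3%. *Lepr* stood out among the well-counted genes, with 29.2% against 5.51%, while *Glp1r* had the narrowest spread of the 10, with 9.24% against 4.85%.

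Morphine-exposed and saline mice were compared with the quasi-likelihood test of edgeR, and a gene was called DE at an unadjusted *p* under 0.05 and an absolute Log2FC over 0.26, the thresholds of the study. With sex as a covariate, 1 of the 10 genes was called, *Prokr1*, which was higher in morphine mice. Of all 18608 genes tested, 221 (1.19%) were called, and with 10 genes the counts here and below are too small to be read against such shares. In females 0 of 10 were called, against 1.81% of all genes. In males 0 of 9 were called, against 2.99% of all genes, and *Gfral* did not pass the filter there. After Benjamini-Hochberg adjustment over all genes, none of the 10 had an adjusted *p* below 1.00 in these 3 comparisons of edgeR, and 0 of all genes had one under 0.05, while 246, 343, and 543 genes had an unadjusted *p* under 0.05 in the sex-combined, female, and male comparisons. The Log2FC of the 10 genes had a median of -0.01 in the sex-combined comparison, beside -0.02 over all genes tested, with 4 above 0 and 6 below. Across the 10 genes, the levels of morphine and saline mice overlapped for every gene in the sex-combined comparison (0.0376% of all genes did not overlap) and in females (5.67% of all genes), and for all but *Gcg* in males (8.86% of all genes).

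**Figure D2:**
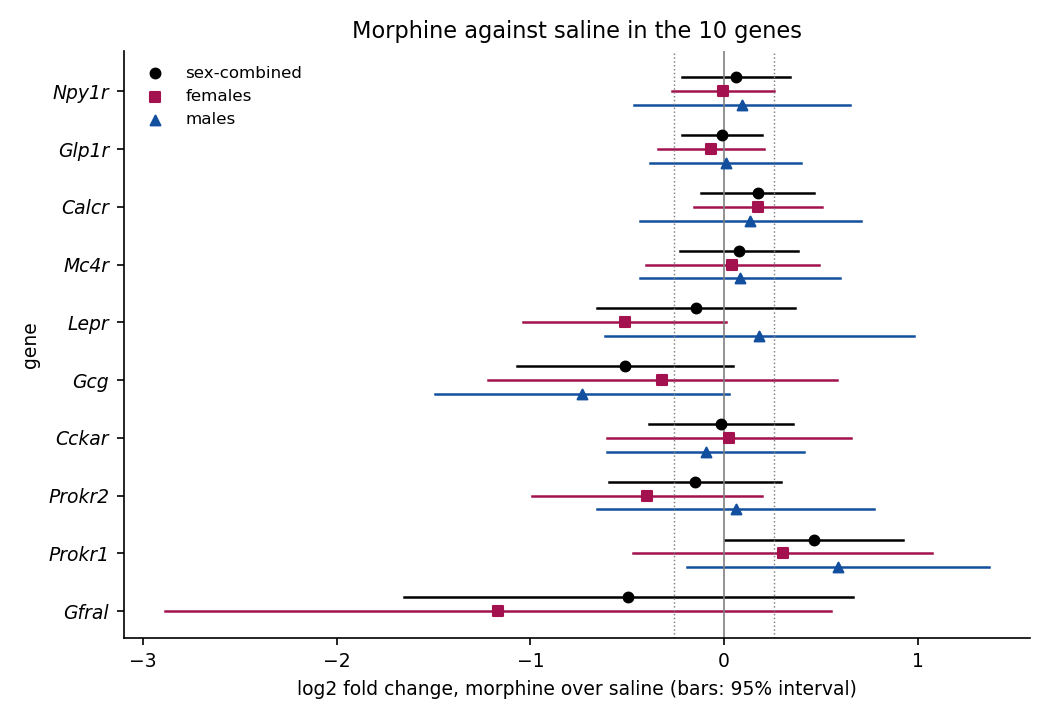
Log2FC of morphine over saline for each of the 10 genes with its 95% interval, in the sex-combined comparison (black circles), females (red squares), and males (blue triangles). Dotted lines mark the threshold of 0.26 in each direction. The sex-combined interval of *Prokr1* lies just above 0, and the intervals of all other genes include 0.

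*Prokr1* encodes a G protein-coupled receptor of the prokineticins and lies on chromosome 6 (87578591 to 87590743, GRCm38, minus strand, ENSMUSG00000049409). It is one of the genes that the study itself reported from these libraries, so its call is not independent evidence. In saline mice it was at 0.326, 0.555, and 0.491 CPM in the males and at 0.436, 0.550, and 0.428 CPM in the females. In morphine mice it was at 0.524, 0.638, and 0.591 CPM in the females and at 0.838, 0.757, and 0.532 CPM in the males. Thus 4 of 6 morphine mice lay above the highest saline mouse, and the other 2 lay among the saline mice. The mean was 0.647 ± 0.127 CPM (SD, n = 6) in morphine and 0.464 ± 0.0866 CPM (SD, n = 6) in saline mice, and the Log2FC was 0.47 (standard error 0.21, 95% interval 0.01 to 0.93, unadjusted *p* = 0.047, adjusted *p* = 1 from edgeR over all genes).

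The call of *Prokr1* was narrow. It was lost with edgeR's exactTest, the test of the study (unadjusted *p* = 0.0533), with the Wald test of DESeq2 (*p* = 0.0931), without a filter on low counts (*p* = 0.11), and with a replicate block (*p* = 0.0724), while the Log2FC under these settings stayed between 0.45 and 0.47. Leaving out 1 mouse at a time kept it in 3 of 12 fits, and the Log2FC stayed between 0.36 (without saline male 1) and 0.54 (without saline female 5). The library labelled morphine male 6 did not carry it, since without that library the Log2FC was 0.53 (unadjusted *p* = 0.0356). The same direction was present within each sex, with 0.30 (standard error 0.35) in females and 0.59 (standard error 0.33) in males, and neither passed the test. Of 8 markers of cerebellar granule cells, 3 (*Cbln3*, *Gabra6*, and *Fat2*) were called higher in morphine mice in the sex-combined comparison and in males, and in females 0 were called higher and *Zic2* was called lower. The list summed to 116.5–162.5 CPM in saline mice. Morphine males 4 and 5, at 186.1 and 216.8 CPM, lay above that range, and the morphine females, at 129.3–145.9 CPM, lay inside it. Over the 12 mice, the level of *Prokr1* and this sum had r = 0.654 (permutation *p* = 0.0219, adjusted *p* = 0.197 over 90 pairs of a gene and a marker list), rho = 0.455 (permutation *p* = 0.14, adjusted *p* = 0.5), and r = 0.214 without the 2 mice farthest from the median sum. The part of these cells in the result was not tested.

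**Figure D3:**
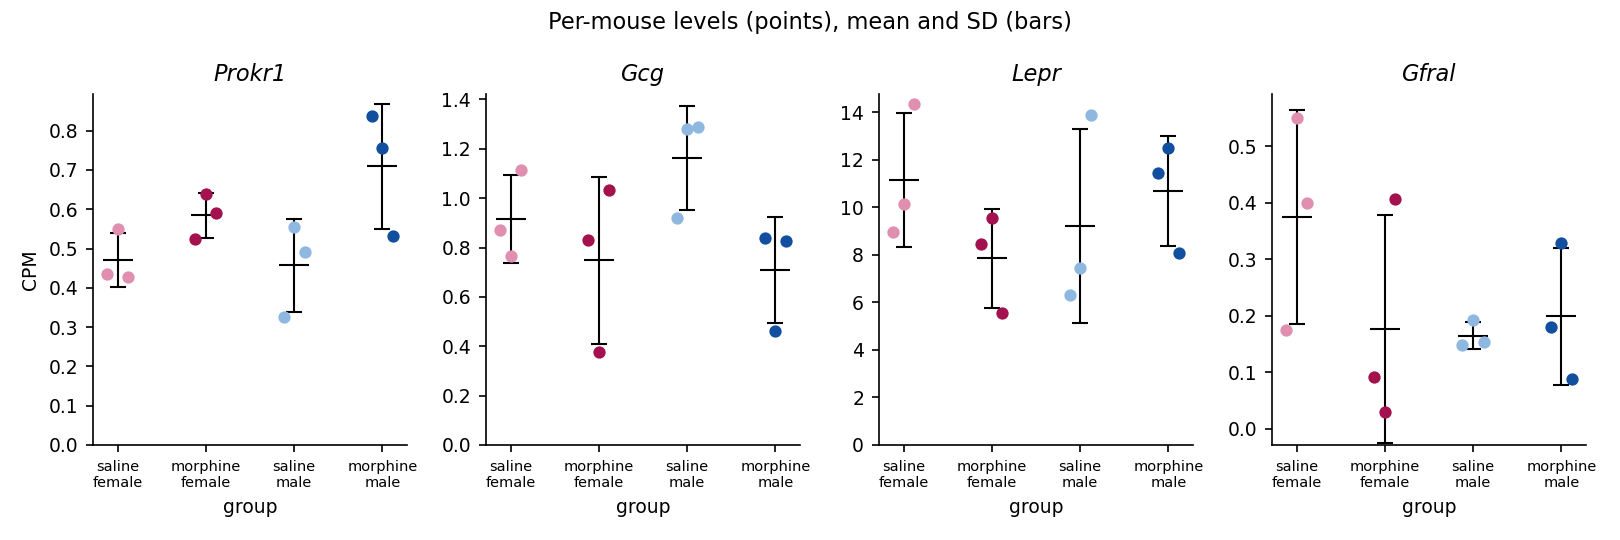
Level of *Prokr1*, *Gcg*, *Lepr*, and *Gfral* in each mouse (points), in CPM, with the group mean and SD (bars, n = 3). *Prokr1* is higher on average in morphine mice of both sexes, *Gcg* separates the males without overlap, and the *Lepr* and *Gfral* groups overlap in both sexes.

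*Prokr1* and its paralog *Prokr2*, on chromosome 2 (132337733 to 132385447, GRCm38, minus strand), have similar coding sequences, and their reads were 100 bases long. The most alike stretch of 100 coding bases is shown to let the reader see how far reads of one could be taken for the other. It holds bases 916–1015 of the 1179 coding bases of *Prokr1* (chr6:87581387-87581486) and bases 880–979 of the 1143 coding bases of *Prokr2* (chr2:132373561-132373660). Both stretches lie in 1 coding exon, are given 5′ to 3′ on the coding strand from GENCODE M21 transcripts, and carry capitals where the genes differ.
Prokr1: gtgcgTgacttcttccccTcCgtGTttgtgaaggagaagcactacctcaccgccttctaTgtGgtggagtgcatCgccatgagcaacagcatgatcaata
Prokr2: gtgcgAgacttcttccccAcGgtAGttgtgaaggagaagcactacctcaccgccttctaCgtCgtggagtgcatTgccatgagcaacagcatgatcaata
In this stretch 92 of 100 bases are the same and 8 differ, and the longest run shared by the coding sequences is 34 bases. A full-length coding read of either gene therefore differs from the other gene at 8 or more positions in an ungapped match.

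*Prokr2* was more abundant per kb than its paralog and was not called. It was at 1.33, 1.75, and 2.55 CPM in saline males, 1.92, 2.42, and 3.00 CPM in saline females, 2.09, 1.42, and 2.11 CPM in morphine females, and 2.43, 1.88, and 1.69 CPM in morphine males. The ranges of both treatments overlapped in each sex. The Log2FC was -0.15 (standard error 0.21, 95% interval -0.59 to 0.30) in the sex-combined comparison, -0.40 (standard error 0.27) in females, and 0.06 (standard error 0.30) in males. Of the ligands, *Prok1* was at 0.890–1.54 CPM with a sex-combined Log2FC of -0.02 (standard error 0.18), and *Prok2* had 5 counts in all 12 libraries together, with 0 in 7 of them.

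*Gcg* (chromosome 2, 62474530 to 62483650, GRCm38, minus strand, ENSMUSG00000000394), the precursor gene of glucagon-like peptide 1, had the lowest Log2FC in males among the 9 of the 10 genes that were tested there. Saline males had 0.919, 1.28, and 1.29 CPM and morphine males 0.838, 0.461, and 0.828 CPM, so that 3 of 3 morphine males lay below the lowest saline male. These levels stood on 31, 60, and 42 counts in saline and 28, 14, and 28 counts in morphine males. The Log2FC in males was -0.74 (standard error 0.32, 95% interval -1.49 to 0.02, unadjusted *p* = 0.0556), which missed the threshold. It passed with edgeR's exactTest (unadjusted *p* = 0.0444), when each library had to hold 10 or more counts of a gene (unadjusted *p* = 0.0469), and without saline male 1 (-0.88, unadjusted *p* = 0.0475). Without the library labelled morphine male 6 it was -0.87 (unadjusted *p* = 0.0662), and without morphine male 5 it was -0.45 (unadjusted *p* = 0.198).

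In females *Gcg* was at 0.872, 0.764, and 1.11 CPM in saline and at 0.831, 0.377, and 1.03 CPM in morphine mice. Only morphine female 2 lay below the saline females, and without it the Log2FC of -0.32 (standard error 0.40) became 0.01. Over both sexes the Log2FC was -0.51 (standard error 0.26, 95% interval -1.07 to 0.04, unadjusted *p* = 0.068). EdgeR's exactTest, which takes no covariate, placed it past the threshold (Log2FC -0.52, unadjusted *p* = 0.0487), as did leaving out morphine female 3 (-0.68, unadjusted *p* = 0.02). The change in males and in females was not shown to differ (interaction -0.40, standard error 0.52, unadjusted *p* = 0.457).

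The receptor gene *Glp1r* gave the tightest estimate of the 10. It was at 10.5, 12.6, and 15.1 CPM (lowest, median, highest) in saline mice and at 11.5, 12.6, and 13.5 CPM in morphine mice. Its sex-combined Log2FC was -0.01 (standard error 0.10), and its 95% interval from -0.22 to 0.20 lay within the threshold of 0.26 on both sides. No direction can be read from it, since scaling by total counts gave 0.04. Among related receptors, *Glp2r*, for the intestinotrophic peptide from the same precursor, was at 0.850–2.03 CPM, and *Gcgr*, for glucagon itself, had 28 counts in all libraries and was not tested.

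*Lepr* (chromosome 4, 101717404 to 101815352, GRCm38, plus strand, ENSMUSG00000057722) encodes the leptin receptor, which signals through JAK2 and STAT3 in its long form, and the counts join the long and the short forms. Saline females were at 8.98, 10.2, and 14.3 CPM and morphine females at 8.44, 9.57, and 5.54 CPM. Thus 2 of 3 morphine females lay below the lowest saline female, and the third lay among the saline females. The Log2FC in females was -0.51 (standard error 0.23, 95% interval -1.04 to 0.01, unadjusted *p* = 0.0541). It crossed the threshold with edgeR's exactTest (unadjusted *p* = 0.0423), with the Wald test of DESeq2 (*p* = 0.0345), and without a filter on low counts (*p* = 0.00277), and its size fell to -0.28 without saline female 6 and to -0.32 without morphine female 3.

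In males the Log2FC of *Lepr* was positive and did not pass the test. Saline males were at 6.32, 7.45, and 13.9 CPM and morphine males at 11.5, 12.5, and 8.07 CPM, which gave 0.18 (standard error 0.34). Saline male 3 was the highest of the males and decided this value: without it the Log2FC was 0.63, which passed the threshold, as 28.6% of all genes then did. The change in males minus that in females was 0.72 (standard error 0.44, unadjusted *p* = 0.132, 95% interval -0.25 to 1.68), and no difference between the sexes was shown.

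The level of *Lepr* followed that of meningeal fibroblast markers across the mice. The 10 markers summed to 291.5, 316.1, and 383.4 CPM in saline females, to 239.2, 326.0, and 214.6 CPM in morphine females, to 254.4, 339.2, and 384.5 CPM in saline males, and to 345.3, 346.2, and 246.0 CPM in morphine males. In females 9 of the 10 were lower in morphine mice, and 3, *Col3a1*, *Crabp2*, and *Dcn*, were called, beside 1.81% of all genes. In males 6 were lower and 4 higher, and 0 were called, beside 2.99% of all genes. None of the 10 was absent, with *Dcn* at 19.4–58.6 CPM and *Col1a1* at 6.98–26.4 CPM. *Pdgfra* was the highest of the 10, at 107.9–140.6 CPM, and its weight in the sum was not tested. Over the 12 mice, the log2 level of *Lepr* and this sum had r = 0.850 (permutation *p* = 0.00053, adjusted *p* = 0.0159 over 90 pairs) and rho = 0.839 (permutation *p* = 0.00111, adjusted *p* = 0.038). Within saline mice r was 0.850, within morphine mice it was 0.921, and without the 2 mice farthest from the median sum it was 0.817. Choroid plexus cells also express *Lepr* in its short form, and with their markers r was 0.161. With the other lists r was -0.793 (dorsal vagal and catecholamine neurons), -0.708 (forebrain cortex), -0.660 (hypothalamus), and 0.626 (cerebellar granule cells). It was 0.553 with hindbrain and brainstem, 0.277 with endothelial cells, and 0.198 with caudal spinal cord. The part of meningeal tissue in the result for *Lepr* was not tested.

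**Figure D4:**
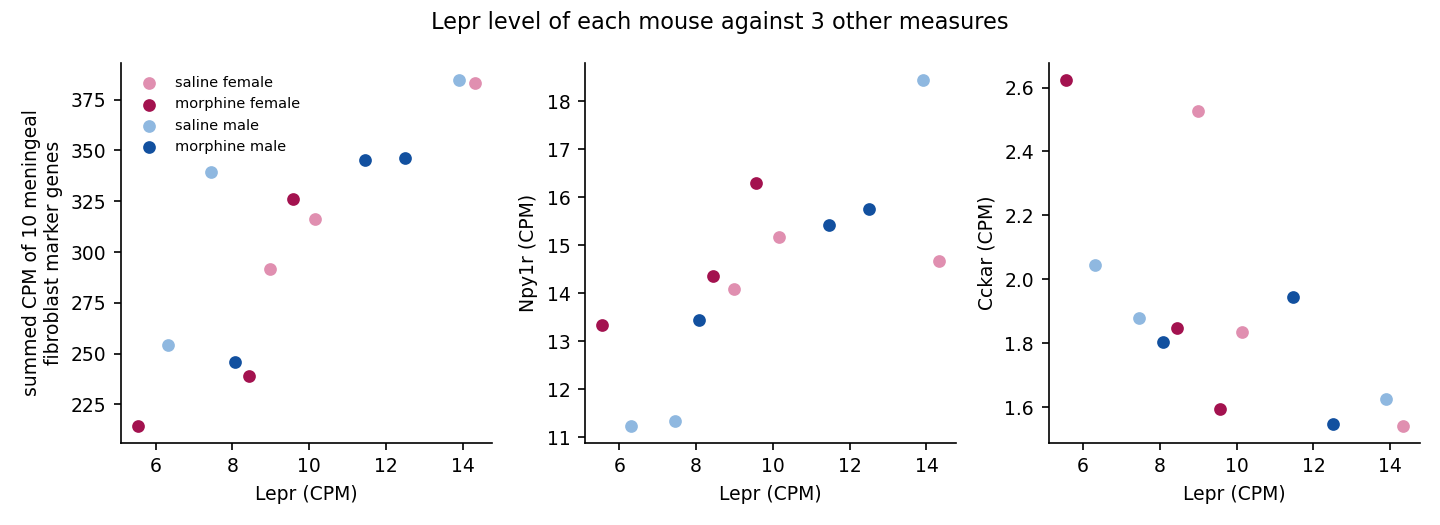
Level of *Lepr* in each mouse (x axis, CPM) against the summed level of 10 meningeal fibroblast markers (left), *Npy1r* (middle), and *Cckar* (right), all in CPM on linear axes. Points are mice colored by sex and treatment. The marker sum and *Npy1r* rise with *Lepr* and *Cckar* falls, in saline and morphine mice alike.

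Downstream of the leptin receptor, *Jak2*, the kinase it binds, was at 42.0–61.2 CPM with a sex-combined Log2FC of -0.02 (standard error 0.12), and *Stat3*, the transcription factor it activates, was at 44.9–74.4 CPM with 0.04 (standard error 0.11). *Socs3*, a feedback inhibitor that leptin induces, had a Log2FC of -0.41 (standard error 0.27, unadjusted *p* = 0.147) at 0.554–1.79 CPM. *Lep*, the leptin gene that fat cells express, had 2 counts in all libraries.

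*Gfral* (chromosome 9, 76164102 to 76213657, GRCm38, minus strand), which is known from neurons of the area postrema and solitary nucleus, was at the edge of detection. Saline females had 6, 18, and 14 counts (0.174, 0.550, and 0.400 CPM), and morphine females had 3, 1, and 11 counts (0.0924, 0.0290, and 0.406 CPM). The groups overlapped because of morphine female 3. The Log2FC in females was -1.17 (standard error 0.77, 95% interval -2.89 to 0.55, unadjusted *p* = 0.161). Without morphine female 3 it was -2.58 (unadjusted *p* = 0.0135, beside 1.52% of all genes called), and without morphine female 2 it was -0.63. Saline males had 5, 9, and 5 counts and morphine males 6, 10, and 3 counts. Their ranges overlapped, and no test was made in males, where *Gfral* did not pass the filter. *Ret*, the tyrosine kinase that GFRAL needs to signal and that motor neurons also express, was at 64.4–87.0 CPM with a Log2FC of -0.06 (standard error 0.09), and the hormone gene *Gdf15* had 8 counts in all, with 0 in 8 of 12 libraries.

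*Calcr* (chromosome 6, 3685680 to 3764714, GRCm38, minus strand), the calcitonin receptor, was at 5.36, 6.58, and 9.05 CPM (lowest, median, highest) in saline and at 7.17, 7.81, and 8.42 CPM in morphine mice. The morphine mice fell inside the range of the saline mice. The Log2FC was 0.17 (standard error 0.13, 95% interval -0.12 to 0.47), with 0.18 in females and 0.14 in males. Among the alternatives tried, *Calcr* passed the threshold only without saline male 3. The Log2FC was then 0.27 in the sex-combined comparison, beside 2.42% of all genes called, and 0.43 in males, beside 28.6%. Of the proteins that turn CALCR into an amylin receptor, *Ramp1* had a Log2FC of -0.24 (standard error 0.26), *Ramp2* 0.02 (standard error 0.11), and *Ramp3* 0.06 (standard error 0.25). *Iapp*, which encodes amylin, had 1 count in all libraries.

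*Mc4r*, the melanocortin receptor, was at 3.23, 4.17, and 4.77 CPM in saline and at 3.79, 3.90, and 4.94 CPM in morphine mice (lowest, median, highest). Those ranges overlapped, and the Log2FC was 0.08 (standard error 0.14, 95% interval -0.23 to 0.38). Its accessory protein gene *Mrap2* was at 31.1–46.5 CPM with a Log2FC of -0.06 (standard error 0.11), and its inverse agonist *Agrp* at 0.275–0.798 CPM with 0.16 (standard error 0.26). *Pomc*, the precursor of its agonist, had 1–56 counts per library and a Log2FC of -1.01 (standard error 0.53, unadjusted *p* = 0.077). Of its 145 counts, saline male 2 held 56 and saline male 1 held 25.

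*Npy1r*, the most abundant of the 10, was at 11.2, 14.4, and 18.4 CPM (lowest, median, highest) in saline and at 13.3, 14.9, and 16.3 CPM in morphine mice, and the latter lay inside the former. The Log2FC was 0.06 (standard error 0.13, 95% interval -0.22 to 0.34). Without saline male 3, the mouse with the highest level, the Log2FC in males went from 0.09 to 0.40 and passed the threshold, beside 28.6% of all genes. Its ligand genes *Npy* and *Pyy* had sex-combined Log2FC of -0.17 (standard error 0.19) and 0.29 (standard error 0.48).

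*Cckar*, the receptor for cholecystokinin on vagal and solitary neurons, was at 1.54, 1.86, and 2.53 CPM in saline and at 1.55, 1.82, and 2.62 CPM in morphine mice (lowest, median, highest). The treatments overlapped almost wholly, and the Log2FC of -0.02 (standard error 0.17, 95% interval -0.39 to 0.36) turned to 0.03 with scaling by total counts. The ligand gene *Cck* was at 3.59–8.64 CPM with a Log2FC of -0.11 (standard error 0.21).

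Between females and males over both treatments 0 of the 10 genes were called, beside 3.94% of all genes, and in the interaction of treatment and sex 0 of 10 were called, beside 2.94% of all genes. With 10 genes, counts of 0 cannot be told apart from those shares and do not show that the sexes were alike. The largest Log2FC of females over males was that of *Gfral*, 0.53 (standard error 0.53, unadjusted *p* = 0.337). Without saline male 3, *Lepr* and *Npy1r* passed the threshold for the interaction beside 24.1% of all genes, and without morphine female 3 *Gfral* did beside 1.76%.

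Of 50 genes that act with these receptors, taken as 20 ligands, 20 receptors or accessory proteins, and 10 genes of leptin signalling and peptide processing, 42 were tested in the sex-combined comparison and 0 were called. In females 2 of 40 were called, *Pyy* and *Dpp4*, beside 1.81% of all genes, and in males 2 of 41, *Ghrl* and *Nmur2*, beside 2.99% of all genes. The female groups did not overlap for 5.67% of all genes, and the male groups for 8.86%. *Ghrl* is also on the list that the study drew from these libraries. None of the 4 had an adjusted *p* below 1.00 from edgeR over all genes. Of the 6 fits that left out 1 mouse, 3 kept *Pyy*, 6 kept *Dpp4*, 2 kept *Ghrl*, and 3 kept *Nmur2*.

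*Pyy*, a peptide of the neuropeptide Y family that lowers food intake, was at 0.639, 0.367, and 0.314 CPM in saline females and at 0.677, 0.928, and 1.63 CPM in morphine females. The groups did not overlap but nearly touched, and the Log2FC was 1.27 (standard error 0.44, unadjusted *p* = 0.0168). In males the values were 1.63, 1.11, and 0.276 CPM in saline and 0.778, 0.329, and 0.857 CPM in morphine mice, with a Log2FC of -0.64 (standard error 0.63). The test of the difference, males minus females, gave -1.89 (standard error 0.82, unadjusted *p* = 0.0398, adjusted *p* = 0.985 from edgeR). A difference between the sexes was not established.

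*Dpp4*, the peptidase that inactivates glucagon-like peptide 1, was at 6.83, 5.63, and 6.88 CPM in saline females and at 3.57, 5.19, and 3.44 CPM in morphine females, without overlap. Its Log2FC in females was -0.67 (standard error 0.20, unadjusted *p* = 0.00778). In males it was at 3.74, 4.82, and 9.02 CPM in saline and at 5.87, 7.40, and 2.96 CPM in morphine mice (Log2FC -0.15, standard error 0.44). The meningeal fibroblast sums given above were also lowest in the 2 morphine females with the lowest *Dpp4*, and the part of that tissue was not tested.

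In males, *Ghrl*, the precursor of the feeding-promoting hormone ghrelin, was at 0.682, 1.09, and 1.01 CPM in saline and at 1.59, 1.45, and 1.45 CPM in morphine mice. All 3 morphine males lay above the saline males, and the Log2FC was 0.65 (standard error 0.26, unadjusted *p* = 0.0401). *Nmur2*, a receptor for neuromedins that lower food intake, was at 1.16, 1.22, and 1.23 CPM in saline males and at 2.48, 1.51, and 2.37 CPM in morphine males, again without overlap (Log2FC 0.79, standard error 0.26, unadjusted *p* = 0.0185). In females *Nmur2* was at 1.48, 2.45, and 2.26 CPM in saline and at 1.45, 2.15, and 1.77 CPM in morphine mice, and the test of the difference between the sexes gave 1.02 (standard error 0.38, unadjusted *p* = 0.0186, adjusted *p* = 0.985 from edgeR). In these males 10 of 10 choroid plexus markers were also higher under morphine, and 6 were called, beside 2.99% of all genes. Their sums were 280.2–536.3 CPM in saline and 430.6–871.1 CPM in morphine males, and their part in the results was not tested.

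**Figure D5:**
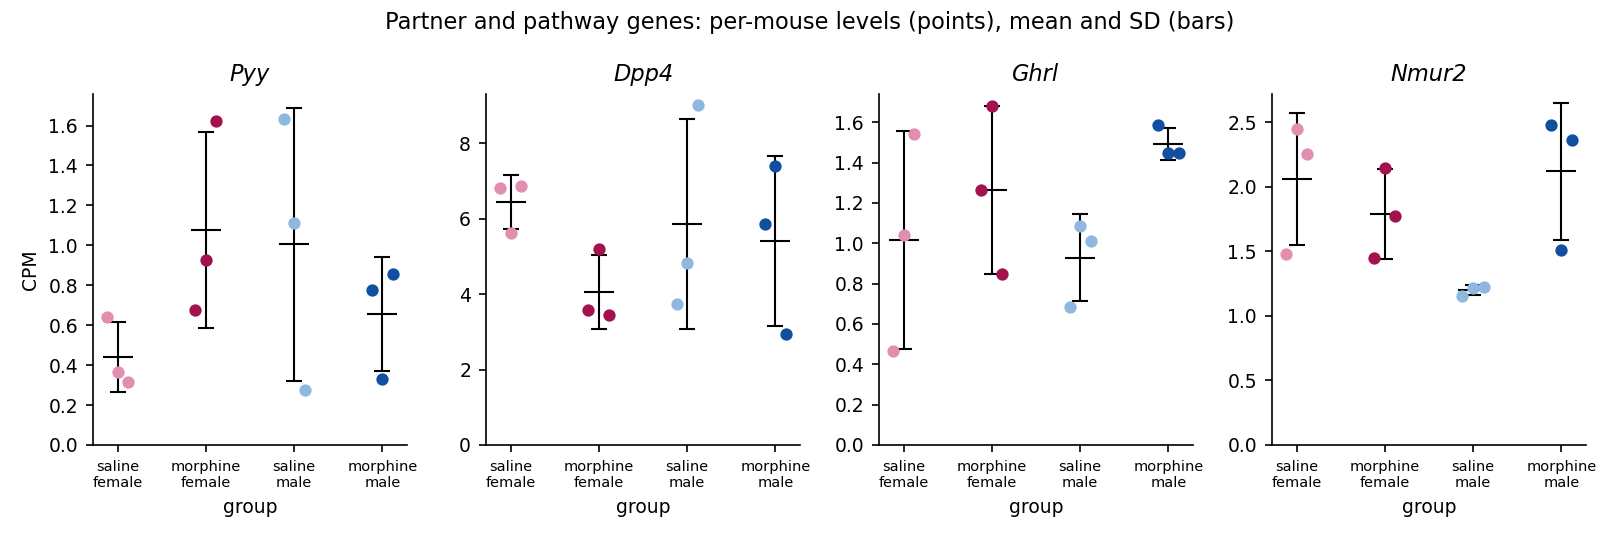
Level of *Pyy*, *Dpp4*, *Ghrl*, and *Nmur2* in each mouse (points), in CPM, with the group mean and SD (bars, n = 3). *Pyy* and *Dpp4* separate the female groups in opposite directions, and *Ghrl* and *Nmur2* are higher in the morphine males than in the saline males.

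A shared rise and fall of the 10 genes over the mice was not shown, and it was not excluded. Of their 45 pairs, 0 had a Pearson correlation of log2 CPM with an adjusted *p* under 0.05 by permutation. The strongest was *Lepr* with *Npy1r* (r = 0.762, permutation *p* = 0.0042, adjusted *p* = 0.189, and rho = 0.825, permutation *p* = 0.00176, adjusted *p* = 0.0792), which was 0.872 within saline and 0.809 within morphine mice and 0.912 without the 2 mice farthest from the median of *Lepr*. *Lepr* and *Cckar* ran opposite (r = -0.711, permutation *p* = 0.00871, adjusted *p* = 0.196, and rho = -0.727, permutation *p* = 0.0093, adjusted *p* = 0.209), with -0.650 within saline and -0.809 within morphine mice and -0.478 without those 2 mice.

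Against the summed levels of 9 marker lists, 5 of 90 pairs had an adjusted *p* under 0.05. Besides *Lepr* with meningeal fibroblasts, these were *Npy1r* with the list for dorsal vagal and catecholamine neurons (r = -0.878, permutation *p* = 0.00012, adjusted *p* = 0.0099, and rho = -0.825, permutation *p* = 0.00157, adjusted *p* = 0.038), *Npy1r* with forebrain cortex (r = -0.860, permutation *p* = 0.00022, adjusted *p* = 0.0099, and rho = -0.818, permutation *p* = 0.00169, adjusted *p* = 0.038), *Lepr* with the dorsal vagal list (r = -0.793, permutation *p* = 0.00246, adjusted *p* = 0.0443, and rho = -0.839, permutation *p* = 0.00106, adjusted *p* = 0.038), and *Glp1r* with the caudal spinal cord list (r = 0.821, permutation *p* = 0.00214, adjusted *p* = 0.0443, and rho = 0.727, permutation *p* = 0.00981, adjusted *p* = 0.126). Without the 2 mice farthest from the median sum these r were -0.709, -0.677, -0.745, and 0.738, in that order. The caudal spinal cord list summed to 0.0296–0.677 CPM only, which is a handful of reads per mouse.

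For the members other than *Gfral*, the 3 genes with the most similar log2 CPM over the 12 mice were taken from all genes tested, as a description, since the best of so many genes is always high. For *Lepr* they were *Fgl2* (r = 0.976), *Timp3* (0.974), which encodes an inhibitor of matrix metalloproteinases, and *Ecm2* (0.968), which encodes an extracellular matrix protein. For *Cckar* they were *Atp5b* (r = 0.960) and *Atp5o* (0.957), both subunit genes of the mitochondrial ATP synthase, and *Elp3* (0.958). For *Npy1r* they were *Pms2* (r = 0.959), *Bmp2k* (0.958), and *Oxsr1* (0.955). The nearest genes of the others had r between 0.820 and 0.904. They were *Ttc9*, AW551984, and *Ubfd1* for *Calcr*, *Extl2*, *Tmem248*, and Gm14292 for *Glp1r*, *Serpina1b*, *Rhod*, and *Cmtm8* for *Gcg*, *Srpx2*, Gm38431, and Gm45686 for *Mc4r*, *Reps1*, Gm45203, and *Slc43a3* for *Prokr1*, and *Zfp964*, *Gas2*, and Gm15477 for *Prokr2*.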

How the data were processed

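Reads were preprocessed by the authors with scruff and Trimmomatic. STAR placed them on mm10, and featureCounts summed those on exons for each gene in a GRCm38 annotation from Ensembl. These sums were deposited as raw counts, without normalization and with library totals that differ. The strand setting and tool versions are not given in the sources used here, and no exon of the 10 genes overlaps an exon of another gene.

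Groups came from the labels. Counts were fitted with edgeR 4.0.16 in R 4.3.3 (glmQLFit and glmQLFTest, TMM, filterByExpr) on the whole table, with sex as a covariate over 12 mice, within each sex, and for the interaction. The study used exactTest, which was an alternative here, as were DESeq2 1.42.0, other scalings and filters, a replicate block, and leaving out each mouse. Log2 CPM used a prior count of 2, and correlations 100000 permutations. Exon lengths and positions came from GENCODE M21, which matched all 55418 symbols. The fits were tested on simulated data.

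Named genes were the 10 members, their direct partners, pathway genes called in a fit, and the 3 nearest genes of each member, of which those of *Gfral* are not reported here. The members and lists were chosen with earlier results of these data known. *p* values measure the spread between mice that may share litters.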

Additional observations from a re-analysis of the deposited data

Results flagged for a closer look

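*Cckar* in morphine female 3 was at 2.623 CPM, far above the next morphine mouse at 1.946 CPM. The gap was 0.629 of the range of the 6 morphine mice, just over Dixon's critical value. It was the only such value among 20 groups of 6 mice (10 genes in each treatment), and chance flags about 1 in 20 groups. This mouse also had the lowest *Lepr*.

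Of 42 genes of the pathway lists tested for the interaction of treatment and sex, 3 were called, beside 2.94% of all genes. Each had an adjusted *p* of 0.985 from edgeR, so a difference between the sexes was not established. With 1 mouse left out, *Nmur2* passed in 10 of 12 fits, *Pyy* in 6, and *Gipr* in 2. *Pyy* had -1.89 (unadjusted *p* = 0.0398). *Nmur2* had 1.02 (unadjusted *p* = 0.0186). *Gipr*, the receptor of the glucose-dependent insulinotropic peptide, had 1.01 (unadjusted *p* = 0.0438), with 0.644 ± 0.0816 CPM in saline females, 0.438 ± 0.0581 CPM in morphine females, 0.453 ± 0.162 CPM in saline males, and 0.627 ± 0.0556 CPM in morphine males (SD, n = 3).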

How the results depend on the processing

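Which of the 10 genes were called depended on the setting, and the cause was not tested. In the sex-combined comparison the count of 1 became 0 with DESeq2's Wald test, without a filter on low counts, and with a replicate block, and it ran from 0 to 1 when 1 mouse was left out. The single gene was *Gcg* in place of *Prokr1* with exactTest (beside 1.31% of all genes called) and without morphine female 3 (2.07%). It was *Calcr* without saline male 3 (2.42%). In females the count of 0 became 1 (*Lepr*) with exactTest, with DESeq2, and without a filter, beside 2.00%, 1.78%, and 3.15% of all genes. It ran from 0 to 1 (*Lepr* or *Gfral*) when 1 mouse was left out, beside 1.12% to 7.95% of all genes. In males the count of 0 became 1 (*Gcg*) with exactTest (beside 2.98% of all genes) and with at least 10 counts in every library (2.79%). It ran from 0 to 3 when 1 mouse was left out. The 3 (*Lepr*, *Calcr*, and *Npy1r*) came without saline male 3, where 28.6% of all genes were called. The interaction ran from 0 to 2, with 2 without saline male 3 beside 24.1% of all genes, and the sex difference stayed at 0. Labels do not say that replicate numbers mark pairs, and deviations of same-numbered mice correlated between -0.356 and 0.18 over genes, so the block joins mice by number alone. It gave 204 DE genes among all genes, against 221, and ended the call of *Prokr1* (0.47, unadjusted *p* = 0.0724).

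Several fold changes near 0 changed sign. Scaling by total counts gave 0.038 for *Glp1r* and 0.032 for *Cckar* (sex-combined), 0.0034 for *Npy1r* in females, and 0.032 for *Cckar* in males. *Npy1r* in females was at 0.00032 with at least 10 counts in every library and 0.00197 in the fit of all 12 mice, and *Glp1r* in males at -0.0015 without a filter. With 1 mouse left out, the ranges were -0.052 to 0.034 (*Glp1r*) and -0.14 to 0.074 (*Cckar*) in the sex-combined comparison. In females they were -0.11 to 0.019 (*Glp1r*), -0.61 to 0.012 (*Gcg*), -0.088 to 0.18 (*Mc4r*), -0.087 to 0.058 (*Npy1r*), and -0.20 to 0.24 (*Cckar*). In males they were -0.013 to 0.43 (*Calcr*), -0.078 to 0.12 (*Glp1r*), -0.057 to 0.19 (*Mc4r*), -0.034 to 0.63 (*Lepr*), -0.035 to 0.40 (*Npy1r*), -0.17 to 0.045 (*Cckar*), and -0.14 to 0.37 (*Prokr2*).

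Without a filter on low counts, 754 genes were called in the sex-combined comparison, 1094 in females, and 985 in males, against 221, 328, and 543. With 1 mouse left out the counts over all genes went up to 458 (sex-combined) and 5341 (males) without saline male 3 and 1482 (females) without saline female 4, and down to 253 in males without morphine male 4 and 208 in females without morphine female 1. In the fit of all 12 mice, 218 were called in females. Scaling by total counts moved the median Log2FC of all genes in males from -0.06 to 0.06 and the percentage higher among all called in males from 64.3% to 91.3% (sex-combined, from 51.1% to 72.6%, and the interaction, from 54.7% to 81.1%). *Gfral* and *Prokr1* had at most 18 and 28 counts per library, which limits what can be detected for them.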
